A study of Mus musculus with 9 samples.

Results

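The genes described here carry mouse symbols that begin with Vps, Snx, Commd or Chmp followed by a digit, which covers most subunits of the endosomal sorting machinery. They were chosen by symbol alone, from probe sets that the platform annotation ties to a single gene. The rule found 85 of 18193 genes, with 179 of 34945 such probe sets. For sorting the results they were placed in classes by textbook role. These were 7 ESCRT-I and ESCRT-II subunits, 12 ESCRT-III subunits and ATPases, 6 retromer and retriever subunits and 10 COMMD genes. The other classes were 30 sorting nexins, 9 HOPS, CORVET and SM protein genes, 5 of GARP and EARP, 4 Vps13 genes and 2 other Vps genes.

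The series asked which messenger RNAs are bound to polysomes, the ribosome clusters that translate them, as the mouse oocyte matures. Oocytes were collected 48 h after an injection of pregnant mare's serum gonadotropin (PMSG) and then 0, 4 or 14 h after human chorionic gonadotrophin (hCG), as germinal vesicle (GV), metaphase I (MI) and metaphase II (MII) oocytes respectively. Each stage had 3 arrays, which the labels call biological replicates, so 9 arrays were used in all. GV oocytes are arrested before meiosis resumes, MI oocytes are in the first meiotic division and MII oocytes are arrested before fertilisation. The title, source and stage fields of the MI samples all say MI, while their description carries the code pGVB, which the labels do not explain. The sources used here give neither the mouse strain, the age of the animals, nor how many mice or oocytes were pooled for an array. If replicates shared animals, the tests measure a spread that is partly technical.

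Endosomes receive membrane proteins from the cell surface and decide whether each is degraded or reused. ESCRT complexes bind ubiquitinated cargo and bud it into the endosome for delivery to lysosomes, and ESCRT-III filaments also cut membranes at the end of cytokinesis and during nuclear envelope sealing. Retromer, retriever and the COMMD proteins return cargo to the surface or to the Golgi, often through sorting nexins, which bind phosphoinositides and bend membrane. HOPS and CORVET tether endosomes before fusion, GARP and EARP tether vesicles at the Golgi and at recycling endosomes, and Vps13 proteins carry lipids between membranes.

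Promoter windows are shown first for the largest fall among the COMMD genes (Commd9), a retromer gene that fell (Vps26a), the largest fall among the sorting nexins (Snx17) and the largest rise in MII against MI (Snx7). They are RefSeq windows of assembly GRCm38.p6, from 250 bases before to 50 bases after a gene's start, read 5′ to 3′ on the gene's strand: Commd9 at chr2:101886012-101886311 (plus strand), Vps26a at chr10:62486756-62487055 (minus strand), Snx17 at chr5:31193054-31193353 (plus strand) and Snx7 at chr3:117868887-117869186 (minus strand). Capitals mark the E-box letters CACGTG, with their flanks where they extend to the palindrome TCACGTGA, and the ETS-type letters CCGGAAG on either strand.
Commd9: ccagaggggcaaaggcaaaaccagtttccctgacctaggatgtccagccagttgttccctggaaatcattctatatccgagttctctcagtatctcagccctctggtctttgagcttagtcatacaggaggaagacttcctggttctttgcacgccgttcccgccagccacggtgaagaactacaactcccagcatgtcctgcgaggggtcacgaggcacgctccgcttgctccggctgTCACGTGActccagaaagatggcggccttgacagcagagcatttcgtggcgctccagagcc
Vps26a: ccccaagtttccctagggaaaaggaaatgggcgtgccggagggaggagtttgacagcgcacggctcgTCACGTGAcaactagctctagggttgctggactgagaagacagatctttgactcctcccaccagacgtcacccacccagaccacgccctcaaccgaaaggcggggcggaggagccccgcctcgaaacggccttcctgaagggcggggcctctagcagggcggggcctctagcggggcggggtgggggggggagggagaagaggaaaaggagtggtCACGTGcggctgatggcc
Snx17: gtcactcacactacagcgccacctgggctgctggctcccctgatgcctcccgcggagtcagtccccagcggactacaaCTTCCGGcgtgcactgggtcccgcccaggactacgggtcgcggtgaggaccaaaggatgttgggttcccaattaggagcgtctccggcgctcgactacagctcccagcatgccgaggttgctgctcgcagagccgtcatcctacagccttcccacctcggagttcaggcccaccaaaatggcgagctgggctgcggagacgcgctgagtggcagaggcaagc
Snx7: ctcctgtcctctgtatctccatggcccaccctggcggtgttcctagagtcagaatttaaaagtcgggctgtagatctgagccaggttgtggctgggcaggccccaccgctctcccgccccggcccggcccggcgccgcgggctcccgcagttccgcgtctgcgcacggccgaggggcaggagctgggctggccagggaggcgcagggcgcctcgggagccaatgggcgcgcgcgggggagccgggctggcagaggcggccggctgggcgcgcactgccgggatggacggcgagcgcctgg
Capitals appear in the Commd9, Vps26a and Snx17 windows, and the Snx7 window holds neither motif. The RefSeq table held 68 windows for 56 of the 85 genes. TCACGTGA, which contains CACGTG, was found in 8.82% of those windows (Commd8, Commd9, Vps16, Vps26a and Vps33a) and in 0.974% of all 32851 windows of the table. CACGTG was found in 16.2% against 7.15% of all windows, and CCGGAAG in 25% against 8.86%. Of the 10 genes with CACGTG, 4 fell, 2 rose and 4 did not pass in MII against GV. In that comparison 25.9% of the 85 genes fell and 8.24% rose, beside 8.8% and 5.46% of all genes. In MII against MI, 3 of the 10 fell and none rose, where 18.8% of the 85 genes fell and 3.53% rose (all genes 6.78% and 2.54%). Of the 5 genes with TCACGTGA, 3 fell in MII against GV and 2 in MII against MI, and none rose. Another 7 motifs were searched on both strands. GGGCGG was in 64.7% against 35.7% of windows, CCAAT in 26.5% against 37.4%, TATAAA in 8.82% against 13.6% and TGACGTCA in 1.47% against 1.79%. Letters of the NRF1 palindrome were in 2.94% against 0.971%, of the ZNF143 motif in 7.35% against 1.81% and of the extended YY1 motif in 4.41% against 0.633%. These matches are descriptions of letters in a window, and the motifs were picked after the expression values were seen.

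Values are the deposited array intensities, on a linear scale. Array medians lay between 12.39 and 13.22, near background, and 95th percentiles between 1126 and 1458. Of 12 oocyte markers, the summed intensity was 63983 to 66782 on the GV arrays, 55488 to 60238 on the MI arrays and 35673 to 43171 on the MII arrays. The markers did not all move together. In MII against MI, 5 of the 12 passed as lower and none as higher. In MII against GV, 6 passed as lower and 3 (Dazl, Mos and Oosp1) as higher (50% and 25%). Of all genes at or above the median signal of the genes tested, 17.2% and 10.2% did. The summed intensity of 17 granulosa, cumulus and theca markers was 1017 to 1113 at GV, 1073 to 1473 at MI and 752 to 1084 at MII, and 1 of the 17 passed a test, as lower at MII than at MI. The 11 blood, immune and endothelial markers summed to 363 to 850 at GV, 471 to 857 at MI and 666 to 975 at MII, with 1 of them lower at MII than at MI, and 1 lower and 1 higher at MII than at GV. The part of these other cells in the results was not tested. The array MI replicate 3 stood apart on the granulosa, cumulus and theca list, with a median log2 value of 6.13 against 4.72 to 5.05 on the other 8 arrays. Without it, 17 genes of the endosomal set fell and 3 rose in MII against MI, beside 6.58% and 1.67% of all genes in the same fit. A lower value on these bulk arrays cannot separate less mRNA on polysomes per oocyte from fewer oocytes contributing it.

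MI oocytes were compared with GV oocytes to ask what changed in the first hours after hCG. None of the 85 genes passed at an adjusted p under 0.05 (limma, Benjamini-Hochberg over all 18193 genes), and none of all genes did (0%). At an unadjusted p under 0.05 there were 9 of the 85, beside 7.19% of all genes. The median difference was -0.04 on the log2 scale, against 0.01 for all genes.

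From MI to MII, 16 of the 85 genes fell (18.8%, beside 6.78% of all genes) and 3 rose (3.53%, beside 2.54%), by limma. The median difference was -0.31 on the log2 scale, against -0.02 for all genes. Most of the endosomal genes were bright, and 70 reached the median signal of the genes tested. Of these 22.9% fell and 2.86% rose, beside 13.2% and 4.64% of all genes that bright. Their median difference was -0.43, against -0.14 for all genes that bright. From GV to MII, 22 fell (25.9%, beside 8.8% of all genes) and 7 rose (8.24%, beside 5.46%). Of the 70 brighter ones 30% fell, beside 17.2% of all genes that bright, and 8.57% rose, beside 10.2%. In MII against GV the median difference of the 85 genes was -0.48, against -0.02 for all genes. For the 70 brighter ones it was -0.67, against -0.17 for all genes that bright. Both comparisons use the same MII arrays, so they are not independent. The same 16 genes fell in both, 6 fell against GV alone, 2 rose in both, 1 rose against MI alone and 5 rose against GV alone.

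The number of falls and rises was read against the scaling of the arrays, because each of 3 other scalings moved the median of all genes. In MII against MI that median went from -0.02 to 0.17 after centring each array on its median, 0.05 after quantile normalization and 0.06 after scaling to the same 95th percentile, and in MII against GV from -0.02 to 0.14, 0.04 and 0.06. After centring, the falls and rises among the 85 genes were 14 and 4 in MII against MI, where 5.82% of all genes fell and 3.83% rose, and 21 and 10 in MII against GV, where 7.94% fell and 6.91% rose. Quantile normalization gave 14 and 5 in MII against MI (all genes 5.87% and 4.97%), and 18 and 11 in MII against GV (7.42% and 8.01%). The larger number of rises under these scalings was thus also seen over all genes.

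**Figure D1:**
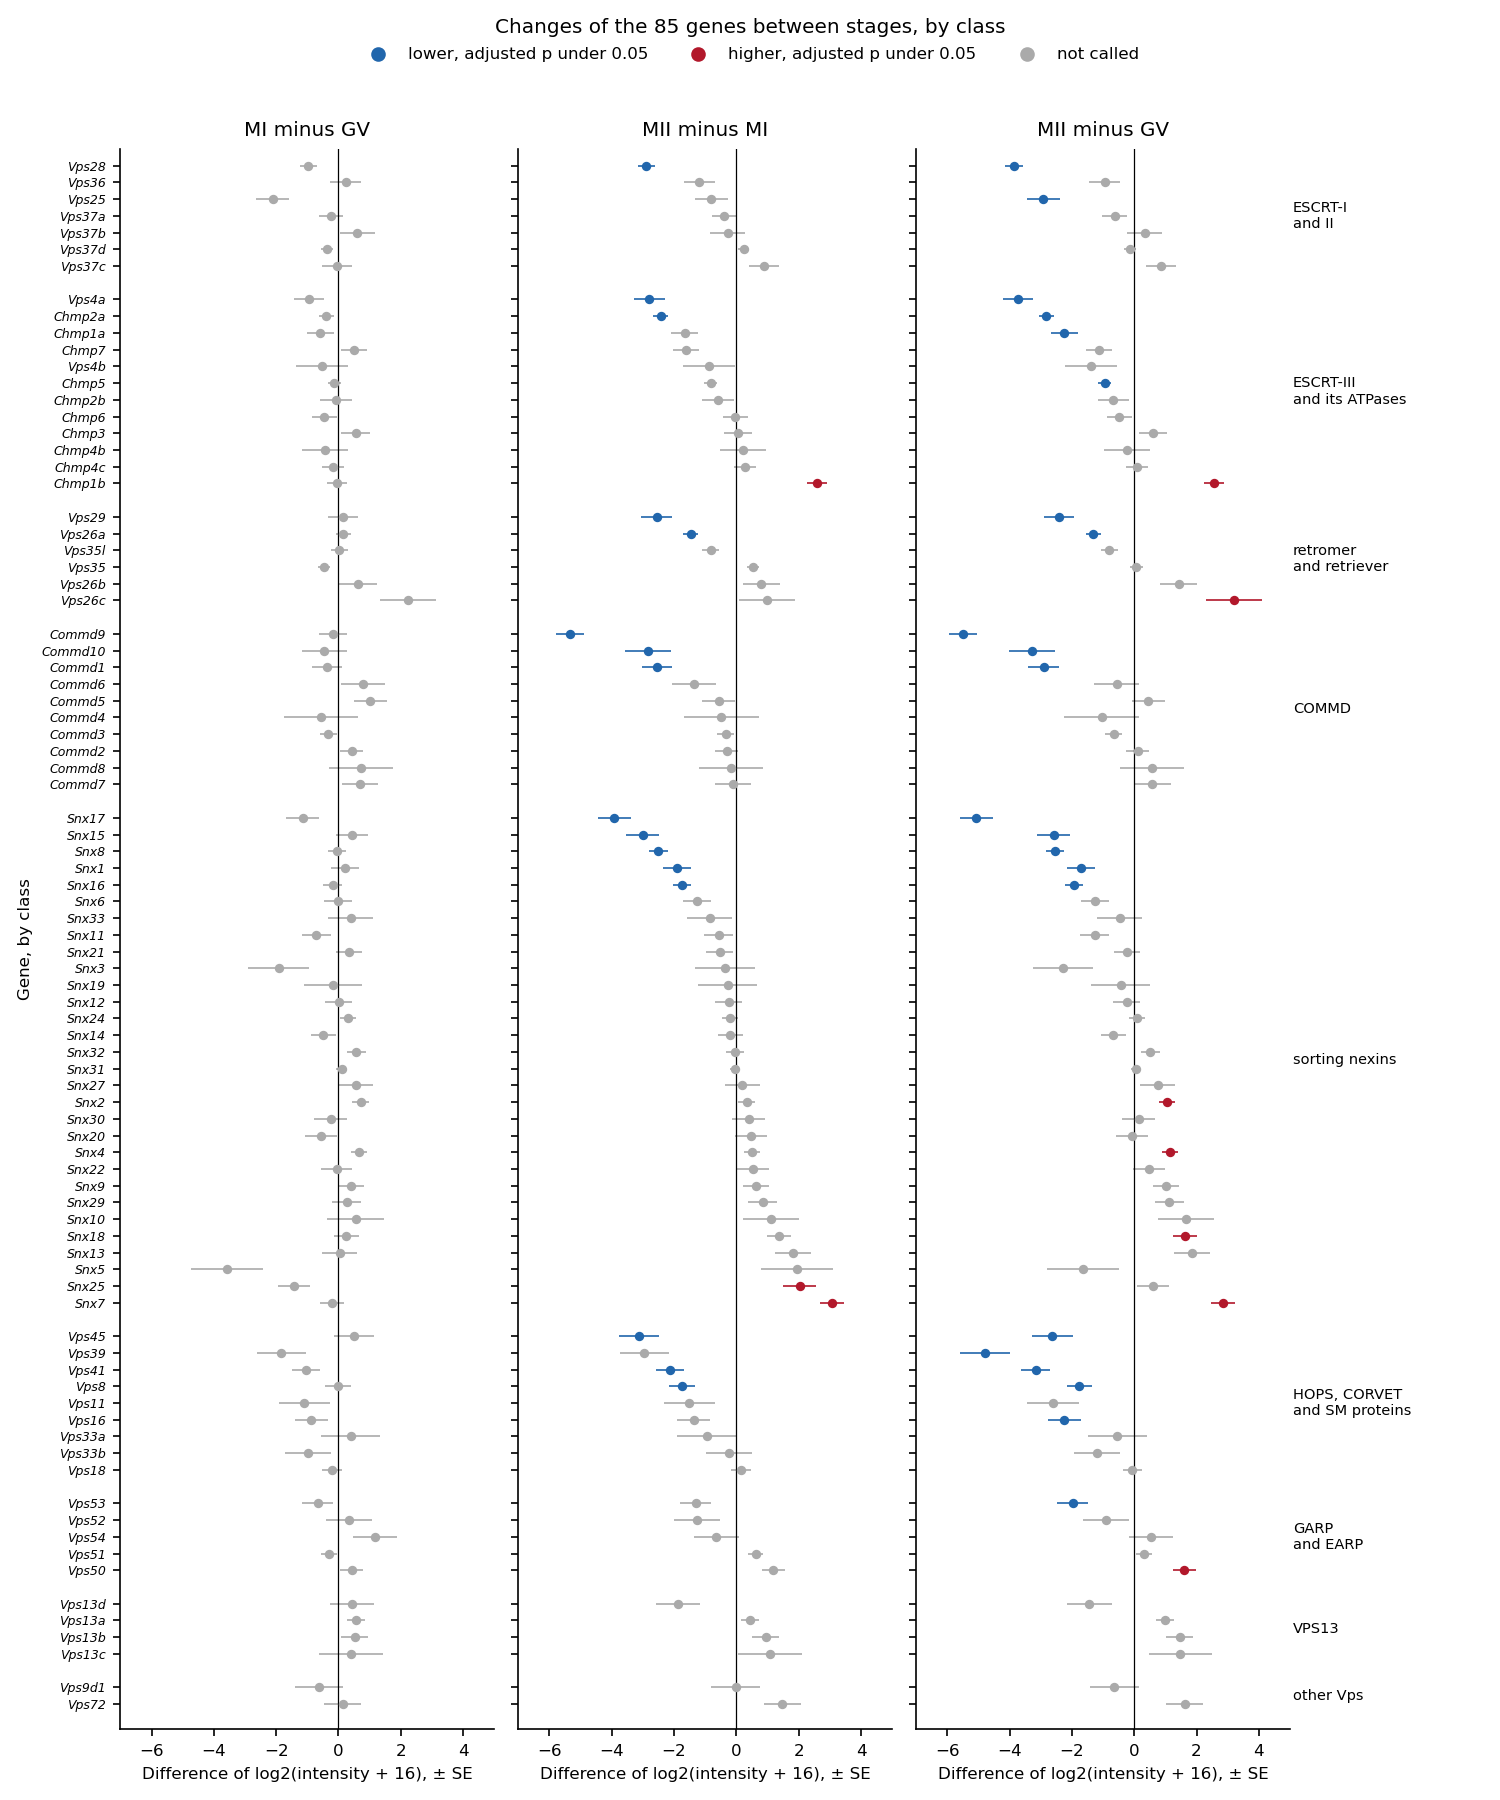
Difference in log2(intensity + 16) of each of the 85 genes, by class, in panels for MI minus GV, MII minus MI and MII minus GV. Each dot is 1 gene with its standard error from the fit, blue for genes that fell, red for genes that rose and grey for genes that did not pass (limma, adjusted p under 0.05). In MII minus MI all 10 COMMD genes lie below 0 (8 of 10 under each other scaling), and in MII minus GV all 9 HOPS, CORVET and SM genes do (8 of 9 after median centring or scaling to the same 95th percentile).

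The ESCRT-I and ESCRT-II complexes bind ubiquitinated cargo and start the bud. In this class of 7, Vps28 fell in MII against MI, Vps28 and Vps25 fell in MII against GV, and none rose. The falls were 14.3% and 28.6% of the class, beside 13.2% and 17.2% of all genes at or above the median signal. The class medians were -0.39 and -0.62 on the log2 scale. Vps28, a core subunit of ESCRT-I, had intensities of 448, 545 and 702 on the GV arrays, 346, 206 and 292 on the MI arrays and 30, 15.9 and 25.3 on the MII arrays. Every MII array was below every MI array, and every MI array below every GV array. Vps28 was 14.6-fold lower at MII than at GV (log2 difference -3.86, limma adjusted p = 0.000654) and differed by -2.89 (SE 0.28) from MI (limma adjusted p = 0.00163). Its difference between MI and GV, -0.97, did not pass (limma adjusted p = 0.51).

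Vps25, an ESCRT-II subunit that links to ESCRT-III, had 63, 369 and 96 on the GV arrays, 28.1, 18.2 and 12.1 on the MI arrays and 2.37, 5.87 and 3.46 on the MII arrays. The stages did not overlap, and the GV array of replicate 2 stood well above the other GV arrays. The MI to GV difference of -2.11 had the smallest adjusted p of the 85 genes in that comparison and did not pass (limma adjusted p = 0.447). On this probe set, which was below the median signal, Vps25 fell from GV to MII, to intensities within the background range (log2 difference -2.92, limma adjusted p = 0.00968). Brighter probe sets annotated to both Vps25 and Ramp2 (means 754 and 345, against 31) were left out by the rule. They differed by -0.83 and -1.63 from GV at MII, and by 0.55 and 0.24 between MI and GV. The third ESCRT-II gene, Snf8, does not match the symbol rule and is given with the partners. The other members here, Vps36 and the 4 Vps37 genes, did not pass. Their log2 differences lay between -1.19 (Vps36) and 0.90 (Vps37c) in MII against MI. The representative probe set of Vps37a differed by -0.39 from MI and -0.62 from GV. Its other probe sets, above the median signal, differed the opposite way, by 1.70 and 1.77 from MI and by 1.56 and 2.20 from GV. The other Vps37c probe set, also above the median signal, differed by -0.73 from MI and -0.30 from GV.

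ESCRT-III subunits polymerise into the filaments that cut the membrane neck, and Vps4 ATPases take them apart. Of 12 genes, 10 of them at or above the median signal, 2 fell and 1 rose in MII against MI (16.7% and 8.33%). Of all genes that bright, 13.2% fell and 4.64% rose, so the share of falls was near that of bright genes. In MII against GV, 4 fell and 1 rose (33.3% and 8.33%), beside 17.2% and 10.2% of all genes that bright. The class medians were -0.71 and -0.81. Chmp2a, a late-joining subunit that helps bring in Vps4, had 979, 784 and 784 on the GV arrays, 588, 571 and 775 on the MI arrays and 95.1, 139 and 87.2 on the MII arrays. Every MII array was lower than all 6 earlier arrays, and the log2 differences were -2.43 (SE 0.24, limma adjusted p = 0.00174) from MI and -2.83 (limma adjusted p = 0.000831) from GV. Vps4a, 1 of the 2 ATPases, had 904, 995 and 694 on the GV arrays, 819, 375 and 269 on the MI arrays and 83.1, 20.5 and 61.3 on the MII arrays. It too was lowest on the MII arrays without overlap, by -2.79 from MI (limma adjusted p = 0.0126) and -3.74 from GV (limma adjusted p = 0.0027). Its paralogue Vps4b did not pass, with log2 differences of -0.87 and -1.40.

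Chmp1b ran the other way. This subunit recruits the microtubule-severing enzyme spastin, and its intensities were 57.4, 63.6 and 52.6 on the GV arrays, 37.4, 40.8 and 104 on the MI arrays and 377, 436 and 436 on the MII arrays. All MII arrays lay above all others, and Chmp1b was 6.05-fold higher at MII than at MI (log2 difference 2.60, SE 0.32, limma adjusted p = 0.0034) and 2.55 higher than at GV on the log2 scale (limma adjusted p = 0.00232). Its other single-gene probe set, near background, differed by -0.56 from MI and 0.45 from GV. With the mean of all its probe sets in place of the brightest, the rise from MI was not called (log2 difference 1.02, limma adjusted p = 0.195).

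Chmp1a and Chmp5 passed in MII against GV alone. Chmp1a, a regulatory subunit, had 615, 305 and 611 on the GV arrays, 430.5, 341 and 222 on the MI arrays and 44.9, 137 and 114 on the MII arrays. The MII arrays lay below all others, with log2 differences of -2.24 from GV (limma adjusted p = 0.0133) and -1.66 from MI (limma adjusted p = 0.0573). Chmp5, which binds the Vps4 cofactor Vta1, was bright on every array, with 2994, 2819 and 3265 on the GV arrays, 3425, 2699 and 2247 on the MI arrays and 1593, 1607 and 1468 on the MII arrays. Its stages MII and GV did not overlap, but the difference was small, -0.95 (limma adjusted p = 0.0212), and was not called in 5 of the 9 fits that left out 1 array (adjusted p up to 0.0665; without GV replicate 1 or 3 or any MII array). It was also lost with 1 added before log2 (adjusted p = 0.172), without the dimmest 40% of genes (0.064) and with all its probe sets averaged (0.0788). Chmp7, the subunit that starts nuclear envelope sealing, had log2 differences of -1.63 from MI (limma adjusted p = 0.0507) and -1.12 from GV (limma adjusted p = 0.136). Chmp2b, Chmp3, Chmp4b, Chmp4c and Chmp6 differed by between -0.60 and 0.28 from MI and did not pass.

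**Figure D2:**
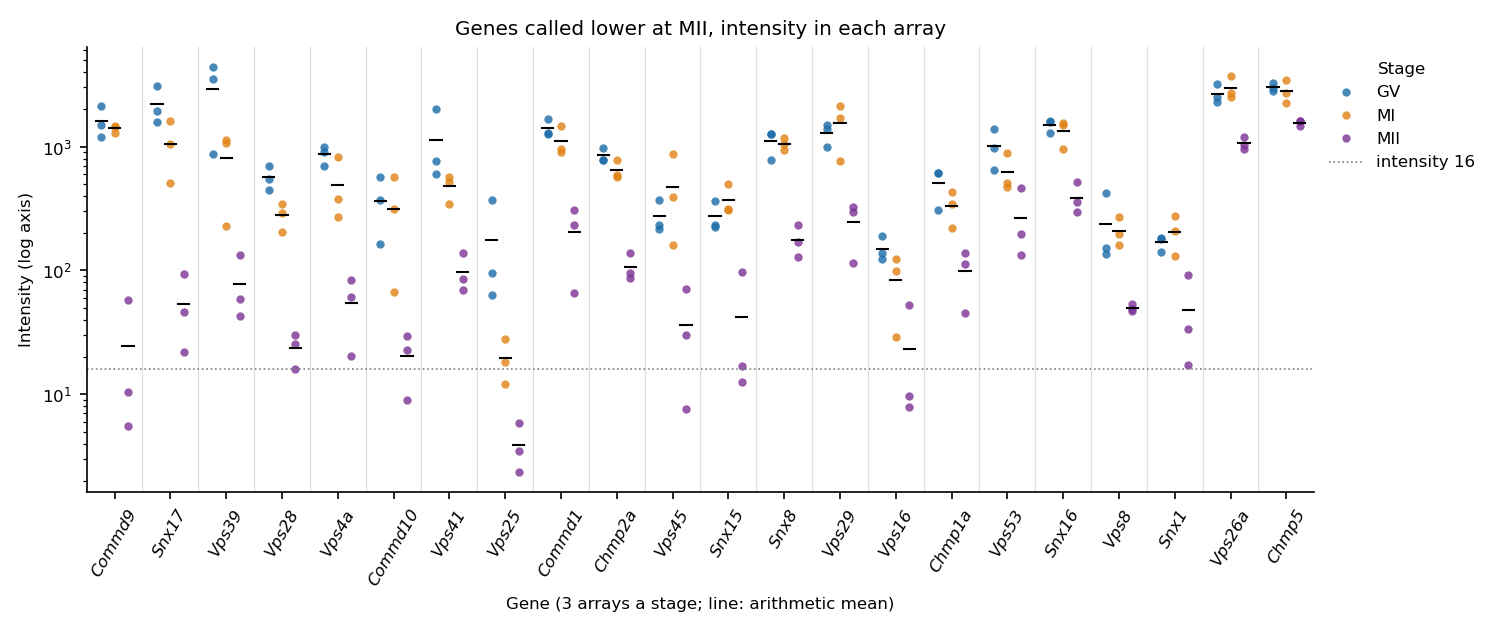
Intensity on each array (log axis) for genes that were lower at MII, with dots for the 3 arrays of each stage and short lines at their arithmetic mean. The dotted line marks an intensity of 16, the amount added before taking log2. Commd9 averaged 1610 at GV and 24.4 at MII.

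Retromer is built from Vps26, Vps29 and Vps35, and retriever from Vps26c, Vps29 and Vps35l. In the 6 genes of both complexes, 2 fell in MII against MI, and 2 fell and 1 rose in MII against GV. The falls were 33.3% of the class each time, beside 13.2% and 17.2% of all genes at or above the median signal. The rise was 16.7% of the class, beside 10.2% of all genes that bright. The class medians were -0.14, which turned to between 0.04 and 0.12 under 3 other scalings, and -0.37. Vps29, the subunit that both complexes share, had 1485, 1e+03 and 1373 on the GV arrays, 2140, 1710 and 762 on the MI arrays and 322, 116 and 299 on the MII arrays. The MII arrays were lower than all 6 others, with log2 differences of -2.56 from MI (SE 0.49, limma adjusted p = 0.0169) and -2.41 from GV (limma adjusted p = 0.0141). Its 2 other bright probe sets differed from MI by -2.32 and -3.51, and its 2 probe sets near background by -0.13 and 0.13. The call against MI was lost without MI replicate 1 or MI replicate 2 (adjusted p up to 0.0631). Vps26a, the arrestin-like subunit, had 3200, 2291 and 2497 on the GV arrays, 3686, 2722 and 2503 on the MI arrays and 1197, 1033 and 953 on the MII arrays. It stayed bright at MII but below every earlier array, by -1.46 from MI (limma adjusted p = 0.00936) and -1.31 from GV (limma adjusted p = 0.00934). With 1 added before log2 in place of 16, neither call was made (limma adjusted p = 0.0695 and 0.0727).

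Vps35, the scaffold that holds retromer together, did not pass in either comparison. Its intensities were 1288, 1424 and 1384 on the GV arrays, 916, 1138 and 905 on the MI arrays and 1469, 1601 and 1240 on the MII arrays. The MII arrays overlapped the GV arrays and lay above the MI arrays, with log2 differences of 0.54 from MI (limma adjusted p = 0.155) and 0.07 from GV (limma adjusted p = 0.905). Vps35l, the retriever scaffold, differed by -0.83 and -0.80 and did not pass (limma adjusted p = 0.107 and 0.0923).

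Vps26c, which belongs to retriever, rose from GV to MII. It had 43.3, 105 and 59.1 on the GV arrays, 1619, 129 and 216 on the MI arrays and 1619, 435 and 564 on the MII arrays, so the MII arrays lay above the GV arrays but overlapped the MI arrays, where replicate 1 was about as high as the highest MII array. The log2 difference was 3.21 (SE 0.90, limma adjusted p = 0.0494). That call was kept in 2 of 9 fits that left out 1 array, those without MI replicate 1 and without MI replicate 2 (adjusted p over the 9 fits 0.0109 to 0.146), and was lost with 64 added before log2 (0.0903). Vps26c also had the smallest adjusted p of its class between MI and GV, with a log2 difference of 2.22 that did not pass (limma adjusted p = 0.674).

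COMMD proteins assemble with Ccdc22 and Ccdc93 into the complex that works beside retriever. Of the 10 genes, Commd1, Commd9 and Commd10 fell in both comparisons and none rose. The falls were 30% of the class each time, beside 13.2% and 17.2% of all genes at or above the median signal. All 10 differences were below 0 in MII against MI (median -0.53), where 51.4% of all genes were below 0 and where each of the 3 other scalings left Commd7 and Commd8 at or above 0, and 6 of 10 were below 0 in MII against GV (median -0.62). The 7 others did not pass, with differences from MI between -1.37 (Commd6) and -0.11 (Commd7). Commd8 differed by -0.16 from MI and 0.57 from GV. Its other probe set, nearly as bright (mean 103 against 107), differed by -2.11 and -2.41. Commd4 had a wide spread at MII, where its arrays read 18.3, 12.5 and 989.

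Commd9 (NCBI Gene 76501) had the largest fall of all 85 genes in both comparisons. Its intensities were 2139, 1191 and 1499 on the GV arrays, 1447, 1464 and 1292 on the MI arrays and 57.4, 5.51 and 10.4 on the MII arrays. The GV and MI arrays overlapped, and all MII arrays lay at 57.4 or below. Commd9 was 40.8-fold lower at MII than at MI (log2 difference -5.35, SE 0.45, limma adjusted p = 0.0013) and 45.6-fold lower than at GV (limma adjusted p = 0.000785). Its 2 other probe sets differed the same way, by -4.20 and -2.49 from MI and -4.37 and -2.95 from GV.

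Commd1, known for its part in copper transport, had 1670, 1267 and 1281 on the GV arrays, 1477, 955 and 908 on the MI arrays and 309, 234 and 65.7 on the MII arrays. Values at MII lay below all others, by -2.55 from MI (SE 0.49, limma adjusted p = 0.0182) and -2.91 from GV (limma adjusted p = 0.00723), and its other probe set differed by -0.98 and -1.26. The call against MI was lost without MI replicate 1 or MI replicate 2 (adjusted p up to 0.0616). Commd10 had 369, 564 and 164 on the GV arrays, 312, 564 and 66.9 on the MI arrays and 22.7, 8.97 and 29.6 on the MII arrays. Its MII arrays did not overlap the others, and the log2 differences were -2.83 from MI (SE 0.73, limma adjusted p = 0.049) and -3.28 from GV (limma adjusted p = 0.0205). The array MI replicate 3 was far below the other MI arrays, and of the 9 fits that left out 1 array only the one without it kept the call against MI (adjusted p 0.0116 to 0.138). That call was also lost with 64 added before log2 (0.107), after median centring (0.0562) and with the replicate block (0.0503). Against GV the Commd10 call was lost without GV replicate 1 or 2 or any MII array (adjusted p up to 0.0686). Commd5, with the smallest adjusted p of the COMMD genes between MI and GV, had 31.8, 42.7 and 24.4 on the GV arrays, 68.8, 162 and 46.7 on the MI arrays and 46.6, 113 and 19.7 on the MII arrays, and its difference of 1.02 did not pass (limma adjusted p = 0.79).

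Sorting nexins share a domain that binds phosphoinositides. Among the 30 genes, 5 fell and 2 rose in MII against MI (16.7% and 6.67%). In MII against GV, 5 fell and 4 rose (16.7% and 13.3%). The median signal was reached by 23 of the 30. Of all genes that bright, 13.2% fell and 4.64% rose in MII against MI, and 17.2% and 10.2% in MII against GV. The shares of the class were thus near those of bright genes. Its medians were -0.04 and -0.01, and they turned above 0 under each of 3 other scalings (0.06 to 0.24 and 0.08 to 0.15). The 5 that fell, Snx1, Snx8, Snx15, Snx16 and Snx17, fell in both comparisons.

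Snx17, the cargo adaptor that hands integrins and lipoprotein receptors to retriever, had 3103, 1952 and 1571 on the GV arrays, 1054, 1605 and 506 on the MI arrays and 22, 46 and 93.9 on the MII arrays. The MII arrays were far below all others, while MI and GV overlapped. Snx17 was 15.2-fold lower at MII than at MI (log2 difference -3.92, SE 0.53, limma adjusted p = 0.00499) and 33.5-fold lower than at GV (limma adjusted p = 0.00138). Snx8, a membrane-bending nexin of endosome-to-Golgi transport, had 1270, 785 and 1262 on the GV arrays, 1167, 1044 and 945 on the MI arrays and 170.0, 233 and 127 on the MII arrays. The GV and MI ranges overlapped and the MII arrays lay below both, by -2.50 from MI (SE 0.29, limma adjusted p = 0.00275) and -2.54 from GV (limma adjusted p = 0.00177). Snx15 had 231, 366 and 224 on the GV arrays, 498, 308 and 313 on the MI arrays and 96.3, 16.8 and 12.5 on the MII arrays. It fell by 3.01 on the log2 scale from MI (limma adjusted p = 0.012) and by 2.59 from GV (limma adjusted p = 0.0141), and the call against GV was lost without GV replicate 2 (adjusted p = 0.051).

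Snx16, found on early and late endosomes, had 1293, 1566 and 1603 on the GV arrays, 1489, 1552 and 946 on the MI arrays and 354, 513 and 295 on the MII arrays. On this probe set the MII arrays lay below all others, by -1.74 from MI (limma adjusted p = 0.01) and -1.93 from GV (limma adjusted p = 0.00432). Its 2 other probe sets, both above the median signal, differed the opposite way, by 0.72 and 0.39 from MI and by 0.59 and 0.50 from GV. With the mean of all 3 probe sets Snx16 was not called (log2 differences -0.21 and -0.28, limma adjusted p = 0.738 and 0.594). Snx1, a membrane-bending partner of retromer, had 183, 142 and 179.5 on the GV arrays, 130.5, 207 and 275 on the MI arrays and 33.4, 92.5 and 17.2 on the MII arrays. Its MII arrays lay below the others, by -1.91 from MI (limma adjusted p = 0.0346) and -1.70 from GV (limma adjusted p = 0.04). The Snx1 calls were kept in 2 and 3 of the 9 fits that left out 1 array (adjusted p up to 0.103 and 0.112). Against MI they held without MI replicate 1 or MII replicate 2, and against GV also without MI replicate 3. Both Snx1 calls were also lost under each of the 3 other scalings, with 1 added before log2, with a trended prior and with the replicate block (adjusted p up to 0.0986 against MI and 0.13 against GV).

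Snx7 rose from background. Its intensities were 8.08, 5.04 and 5.19 on the GV arrays, 1.22, 2.48 and 5.67 on the MI arrays and 81.4, 119.7 and 284 on the MII arrays. All 6 earlier arrays were below 10, and all 3 MII arrays were above 80. The log2 difference was 3.06 from MI (SE 0.39, limma adjusted p = 0.00385) and 2.84 from GV (limma adjusted p = 0.00304). Snx4, which pairs with Snx7 in recycling and in autophagy, had 1130, 782 and 1175 on the GV arrays, 1522, 1477 and 1822 on the MI arrays and 2290, 1791 and 2874 on the MII arrays. It rose from GV to MII by 1.15 on the log2 scale (limma adjusted p = 0.0218), and its difference from MI, 0.50, did not pass (limma adjusted p = 0.324). A second, dim Snx4 probe set differed by -0.21 from GV, and the call was lost without GV replicate 2, MII replicate 1 or MII replicate 3 (adjusted p up to 0.0701), with 1 added before log2 (0.117) and with both probe sets averaged (log2 difference 0.47, adjusted p = 0.533). Snx30, the other known partner of Snx4, did not pass (log2 differences 0.40 and 0.15).

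Snx18, which acts with dynamin at the cell surface, had 714, 541 and 308 on the GV arrays, 659, 873 and 356 on the MI arrays and 1728, 1467 and 1481 on the MII arrays. Its MII values exceeded all others, by 1.63 from GV (limma adjusted p = 0.03) and 1.37 from MI, which did not pass (limma adjusted p = 0.0737). Its other probe set differed by 0.93 from GV and 1.58 from MI. Snx2, the close paralogue of Snx1, had 531, 378 and 432 on the GV arrays, 598, 665 and 1009 on the MI arrays and 856, 818 and 1165 on the MII arrays. It rose from GV by 1.05 (limma adjusted p = 0.038), with MII and MI arrays overlapping. The Snx18 call was lost without GV replicate 2 or 3 or any MII array (adjusted p up to 0.0891), with 1 added before log2 (0.0701) or with both probe sets averaged (0.117), and the Snx2 call was kept in 2 of 9 such fits, without MI replicate 1 or MI replicate 3 (adjusted p up to 0.118). The Snx2 call was also lost with 1 added before log2 (adjusted p = 0.156), without the dimmest 40% of genes (0.064) and with a trended prior (0.0786).

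Snx25, which carries an RGS domain, rose from MI alone. Its intensities were 73.6, 87.4 and 154 on the GV arrays, 62.8, 21.4 and 12 on the MI arrays and 123, 319.6 and 104 on the MII arrays. The MII arrays lay above all MI arrays and overlapped the GV arrays, with differences of 2.03 from MI (SE 0.52, limma adjusted p = 0.049) and 0.61 from GV (limma adjusted p = 0.567). Only the fit without MI replicate 1, of the 9 that left out 1 array, kept the call (adjusted p 0.0405 to 0.141), and it was lost with 1 or 64 added before log2, a trended prior or the replicate block (adjusted p 0.0598 to 0.0887). Snx5, a further retromer partner, had the smallest adjusted p of the class between MI and GV. It had 106, 125 and 1972 on the GV arrays, 15, 3.71 and 16.4 on the MI arrays and 23.7, 65.7 and 332 on the MII arrays, so that GV replicate 3 was far above the rest, and the difference of -3.58 did not pass (limma adjusted p = 0.566).

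**Figure D3:**
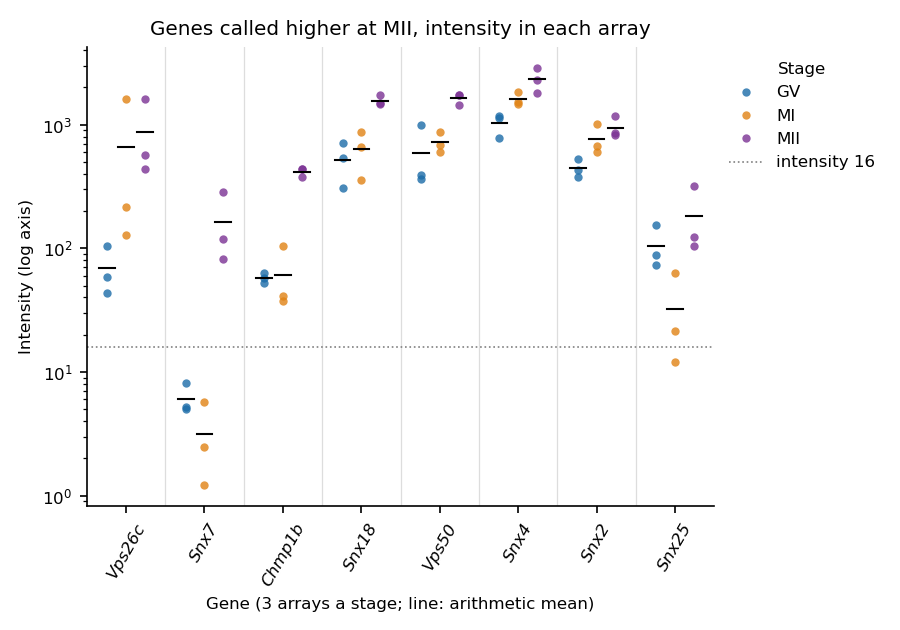
Intensity on each array (log axis) for genes that were higher at MII, with dots for the 3 arrays of each stage and short lines at their arithmetic mean. The dotted line marks an intensity of 16. Snx7 rises from under 10 on all 6 GV and MI arrays to at least 81.4 at MII.

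HOPS and CORVET share a core (Vps11, Vps16, Vps18, Vps33a); Vps39 and Vps41 are specific to HOPS and Vps8 to CORVET. This class of 9 genes includes the SM proteins Vps33a, Vps33b and Vps45. In the class 3 fell in MII against MI and 5 in MII against GV, and none rose. The falls were 33.3% and 55.6% of the class, beside 13.2% and 17.2% of all genes at or above the median signal. Vps45, which is not among the HOPS and CORVET subunits named above, fell in both comparisons. The class medians were -1.51 and -2.24, the lowest of the classes. All 9 genes lay below 0 in MII against GV, where 52% of all genes did; Vps18 turned above 0 after median centring or scaling to the same 95th percentile. After quantile normalization 2 of the 9 passed as lower in MII against GV.

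Vps39 had 871, 4367 and 3520 on the GV arrays, 1122, 1058 and 228 on the MI arrays and 42.8, 58.9 and 132 on the MII arrays. The MII arrays were lowest without overlap, and GV replicate 1 was well below the other GV arrays. Vps39 was 27.6-fold lower at MII than at GV (log2 difference -4.79, SE 0.79, limma adjusted p = 0.00657), and its difference from MI, -2.95, did not pass (limma adjusted p = 0.0579). The second Vps39 probe set differed by only -0.33 from GV and -0.41 from MI. Between MI and GV the difference of -1.84 did not pass (limma adjusted p = 0.695).

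Vps41 had 769, 599 and 1999 on the GV arrays, 570.4, 516 and 346 on the MI arrays and 85.7, 69.8 and 138 on the MII arrays. Each MII array was below all 6 others, by -2.13 from MI (limma adjusted p = 0.0271) and -3.17 from GV (limma adjusted p = 0.00412). Its 2 other probe sets differed from MI by -0.90 and -0.58, and from GV by -0.15 and -1.35. The call against MI was lost without MI replicate 1 or 2 or MII replicate 1 or 2 (adjusted p up to 0.0888), and averaging all 3 probe sets removed both calls (adjusted p = 0.219 and 0.0849).

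Vps8 had 153, 136 and 420.1 on the GV arrays, 271, 195 and 159.7 on the MI arrays and 54, 47.2 and 48.8 on the MII arrays. The MII arrays were close together and below the rest, by -1.74 from MI (limma adjusted p = 0.0349) and -1.76 from GV (limma adjusted p = 0.0242), with -0.66 and -0.99 on its second probe set. Against MI the Vps8 call was lost without any 1 MI or MII array (adjusted p up to 0.106), and against GV without any 1 MII array (up to 0.0715). With quantile normalization, both probe sets averaged or a trended prior both Vps8 calls were lost (adjusted p up to 0.183 and 0.0973), and the call against MI also with 1 or 64 added before log2 or the replicate block (0.0565, 0.0673 and 0.0617). Vps45, which acts on the syntaxins of early endosomes and the trans-Golgi, had 231, 372 and 217 on the GV arrays, 393, 159.8 and 862 on the MI arrays and 70.5, 7.63 and 29.9 on the MII arrays. The MII arrays did not overlap the others, and Vps45 fell by 3.13 on the log2 scale from MI (limma adjusted p = 0.0227) and by 2.63 from GV (limma adjusted p = 0.0314). Its call against MI was lost without MI replicate 1 or MII replicate 2 or 3 (adjusted p up to 0.0697). Against GV it was kept in 3 of 9 fits, without MI replicate 2, MI replicate 3 or MII replicate 1 (adjusted p up to 0.0973), and was lost with 64 added before log2 (0.0638) or after quantile normalization (0.0613).

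The core subunits were less uniform. Vps16 had 139, 188 and 124 on the GV arrays, 98.3, 29 and 124 on the MI arrays and 9.69, 52.4 and 7.9 on the MII arrays. It fell from GV (log2 difference -2.24, limma adjusted p = 0.0277) and did not pass against MI (-1.37, limma adjusted p = 0.179), and the call was lost without any 1 GV array or without MII replicate 1 or 3 (adjusted p up to 0.0934), after quantile normalization (0.0602) and with the replicate block (0.0616). Vps11 differed by -2.61 from GV and did not pass (limma adjusted p = 0.0736). Vps33a and Vps18, both below the median signal, and Vps33b did not pass, with differences from GV of -0.55, -0.06 and -1.20.

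GARP is made of Vps51, Vps52, Vps53 and Vps54, and EARP has Vps50 in place of Vps54. None of the 5 genes passed in MII against MI, and 1 fell and 1 rose in MII against GV. Each was 20% of the class, beside 17.2% (falls) and 10.2% (rises) of all genes at or above the median signal. Vps50, specific to EARP, had 997, 394 and 365 on the GV arrays, 598, 687 and 869 on the MI arrays and 1746, 1736 and 1452 on the MII arrays. Its MII values exceeded all others, by 1.61 from GV (SE 0.38, limma adjusted p = 0.0264) and 1.19 from MI, which did not pass (limma adjusted p = 0.103), and the second probe set differed by 2.64 and 1.93. The Vps50 call was lost without GV replicate 2 or 3 or any MII array (adjusted p up to 0.0848) and with 1 added before log2 (0.0666). Vps53 had 1391, 977 and 641 on the GV arrays, 892, 468 and 503 on the MI arrays and 197, 459.8 and 132 on the MII arrays. It fell from GV by 1.98 on the log2 scale (limma adjusted p = 0.032), with -0.36 and -1.65 on its 2 other probe sets, and differed from MI by -1.31 (limma adjusted p = 0.16). The Vps53 call was lost without GV replicate 1 or 2 or MII replicate 1 or 3 (adjusted p up to 0.0992), with 1 added before log2 (0.0532) or with all probe sets averaged (0.0999). Vps54, specific to GARP, had 45, 14.5 and 64.2 on the GV arrays, 68.2, 70.2 and 218 on the MI arrays and 169, 14.7 and 63.5 on the MII arrays, with no pass in any comparison and a difference of 1.17 between MI and GV (limma adjusted p = 0.839).

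No Vps13 gene passed in any comparison with the arrays as deposited, but 2 of the 4 passed as higher in MII against GV under each of 3 other scalings. Of all genes, 6.91% to 8.01% rose in MII against GV under those scalings. Vps13a, Vps13b and Vps13c differed by 0.99, 1.46 and 1.48 from GV at MII, and Vps13d by -1.44. Other probe sets above the median signal did not all go the same way. Those of Vps13a differed from GV by 1.10, 1.93, 1.79 and -0.89. For Vps13b the values were -0.07 and 0.70, and for Vps13d 0.57. Vps13a, which was closest to the threshold, had 635, 841 and 428 on the GV arrays, 755, 909 and 1075 on the MI arrays and 1448, 1175 and 1093 on the MII arrays, with MII arrays above all others (limma adjusted p = 0.0567 against GV, 0.463 against MI, and 0.79 for MI against GV). Vps13d had 639, 231 and 137 on the GV arrays, 499, 376 and 289 on the MI arrays and 213, 25.7 and 113 on the MII arrays, and its difference of -1.88 from MI did not pass (limma adjusted p = 0.161). The remaining Vps genes are not endosomal coat subunits by textbook role. Vps72, a chromatin remodelling subunit, had 196, 136 and 673 on the GV arrays, 344, 193 and 378 on the MI arrays and 548, 1374 and 805 on the MII arrays, with differences of 1.48 from MI (limma adjusted p = 0.195) and 1.62 from GV (limma adjusted p = 0.125). Vps9d1 had 854, 302 and 285 on the GV arrays, 189, 256 and 389.5 on the MI arrays and 159, 974 and 110.2 on the MII arrays, and its difference of -0.63 between MI and GV did not pass (limma adjusted p = 0.947).

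The size of the falls can be set beside that of the cytosolic ribosomal protein genes, which were measured on the same arrays. Of 42 such genes, 34 fell in MII against MI, with a median of -3.00, and 35 in MII against GV, with a median of -3.41. Only 4 and 5 of the 85 endosomal genes lay below these medians. Probe sets that were not used to represent a gene were also read. For the genes that fell, 10 of 13 such probe sets had the same sign in MII against MI and 15 of 17 in MII against GV. Counting only those at or above the median signal, it was 9 of 11 and 12 of 14. The other probe sets of Snx16 were among the exceptions. For the genes that rose, 0 of 1 and 3 of 4 such probe sets had the same sign, whatever their signal. Several representative probe sets, among them those of Commd9, Snx17 and Vps29, carry the manufacturer's suffix for probes that may match more than 1 transcript, and the part of such matches was not tested.

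Other endosomal genes outside the symbol rule were read from 4 lists. Over all genes, 6.78% fell and 2.54% rose in MII against MI, and 8.8% and 5.46% in MII against GV. Of genes at or above the median signal, 13.2% fell and 4.64% rose in MII against MI. In MII against GV these shares were 17.2% and 10.2%. Among 20 ESCRT partners, 3 fell and 2 rose in MII against MI (15% and 10%, median -0.41). In MII against GV, 4 fell and 3 rose (20% and 15%, median -0.58). Tsg101, the ESCRT-I subunit that sits with Vps28, averaged 2353 ± 1408 at GV, 1676 ± 1185 at MI and 164 ± 37.2 at MII (SD, n = 3), and fell by 3.04 on the log2 scale from MI (limma adjusted p = 0.0179) and by 3.54 from GV (limma adjusted p = 0.00655). Hgs, the ESCRT-0 subunit that binds ubiquitin, differed by -1.54 from MI (limma adjusted p = 0.0227). Snf8, of ESCRT-II, fell by 2.10 from GV (limma adjusted p = 0.0101). In the other direction, Mvb12b of ESCRT-I rose by 2.28 from MI (limma adjusted p = 0.0144), and Cep55, which brings ESCRT proteins to the midbody, by 1.49 (limma adjusted p = 0.0347). Mitd1, an abscission factor that binds ESCRT-III, rose by 2.64 from GV (limma adjusted p = 0.0045).

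The next list held 16 genes of the WASH and CCC complexes and other retromer partners. In MII against MI, 1 fell and 1 rose (6.25% each, median -0.49), where 6.78% of all genes fell and 2.54% rose. In MII against GV, 3 fell and 1 rose (18.8% and 6.25%, median -0.80). Washc3 fell by 2.39 from MI (limma adjusted p = 0.0166) and Washc2, of the same actin-regulating complex, rose by 1.74 (limma adjusted p = 0.0237). Ccdc93, which holds the COMMD proteins together, differed by -3.81 from GV (limma adjusted p = 0.0203) and by -3.09 from MI, which did not pass (limma adjusted p = 0.0608). Washc5 fell by 3.06 from GV (limma adjusted p = 0.0113).

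Of 30 genes of endosome fusion, phosphoinositide synthesis and tethering, 4 fell and none rose in MII against MI (13.3%, median -0.08). That share was near the 13.2% of all genes at or above the median signal, and 25 of the 30 genes were that bright. In MII against GV, 4 fell and 1 rose (13.3% and 3.33%, median 0.06). Rabgef1, an activator of Rab5, fell by 2.72 from MI (limma adjusted p = 0.0118), Mon1a, of the Rab7 activator, by 2.89 (limma adjusted p = 0.0336) and Pik3r4, a subunit of the class III phosphoinositide kinase, by 1.77 (limma adjusted p = 0.00618). Vipas39, the partner of Vps33b, differed by -5.32 from GV (limma adjusted p = 0.0383), with a wide spread at GV, where its arrays read 5539, 126 and 7011. Of 21 receptors and other cargo genes, 1 fell in both comparisons (4.76%, medians -0.04 and -0.06), below the shares over all genes. None rose in MII against MI and 3 rose in MII against GV (14.3%). Egfr, a receptor degraded through ESCRT, fell by 2.91 from MI (limma adjusted p = 0.00717), and Slc2a1, a glucose transporter recycled by retromer, rose by 2.44 from GV (limma adjusted p = 0.0186).

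**Figure D4:**
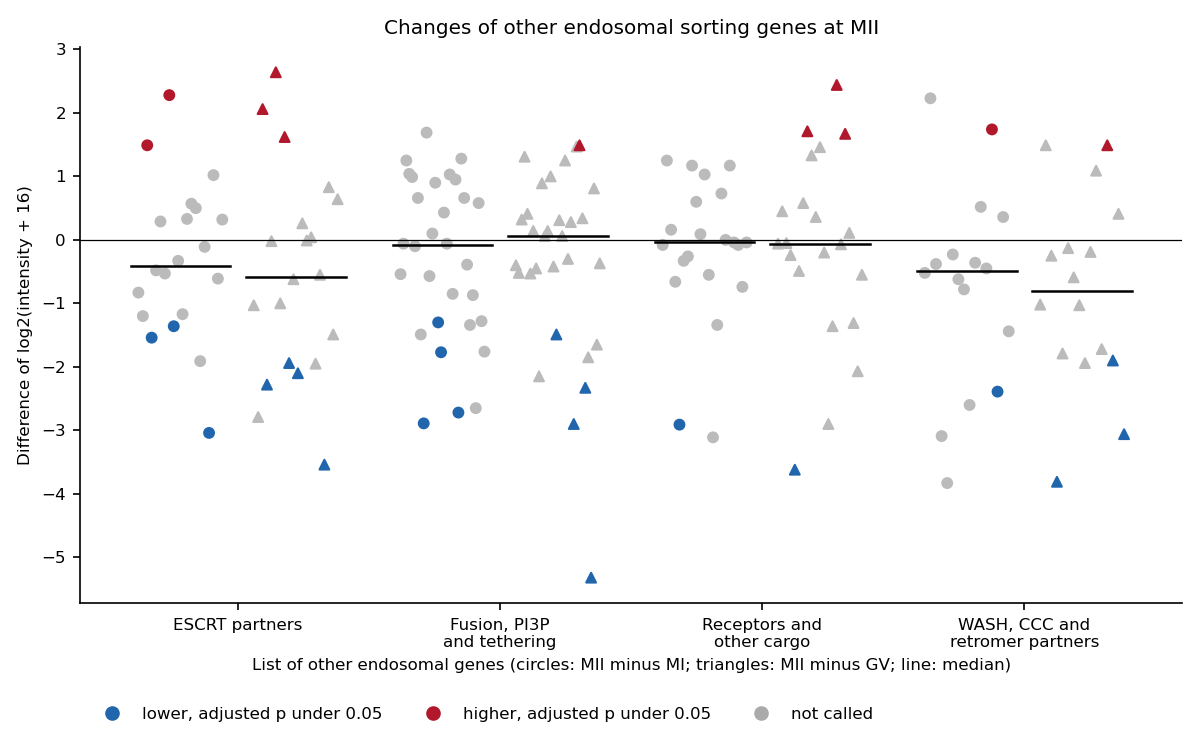
Difference in log2(intensity + 16) of endosomal genes outside the symbol rule, in 4 lists, with circles for MII minus MI, triangles for MII minus GV and a line at each median. Blue symbols fell and red symbols rose (limma, adjusted p under 0.05), and each list holds more grey symbols, which did not pass, than coloured ones.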

How the data were processed

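Polysome-bound mRNA was measured on 9 arrays, and the values are the intensities the authors deposited, on a linear scale, with 1 value per probe set and array. Per the labels' protocols, RNA was reverse-transcribed, linearly amplified and labelled with biotin; probe summary, background correction and scaling were not given in the sources used here, and no detection calls were used.

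Of 45101 probe sets, 64 controls, 932 with several gene symbols and 9160 with none were left out. The probe set with the highest mean log2 value over the 9 arrays stood for each gene. Values were taken as log2(intensity + 16) with no filter on low signal, which understates the change of dim genes. limma 3.58.1 in R 4.3.3 fitted 3 stage means (lmFit, eBayes), two-sided, with Benjamini-Hochberg adjustment over 18193 genes; a gene was called at an adjusted p under 0.05, and the code was tested on simulated data. Fold changes are computed from log2(intensity + 16). Precision is limited by 3 arrays a stage.

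The genes, their classes and the lists of other genes were chosen with earlier results of these data known. Values on every array are given for genes that were called without overlap between stages, up to 12 in each direction, and for the gene with the smallest p of a class where none was called; Chmp7, Vps35, Vps26c and other genes named beside them were added as examples of their class. Of the other lists, up to 3 genes with a large change were named, with further examples picked after their values were seen. Alternatives were the added constant, 3 scalings, a filter, the mean of all probe sets, a trended prior, a replicate block, each array left out, and, chosen after seeing the data, the probe set with the highest mean intensity. Promoter letters came from RefSeq.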

Additional observations from a re-analysis of the deposited data

How the results depend on the processing

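The 62 gene results and the medians over all 85 genes at MII kept their direction in every setting. The medians of the sorting nexins (both MII comparisons) and of retromer and retriever (MII against MI) changed sign under the 3 other scalings, and the median over the 85 genes in MI against GV (-0.04) was 0.07 without GV replicate 1 and 0.01 without MI replicate 3. Of the genes called, 8 of 19 (MII against MI) and 13 of 29 (MII against GV) kept their call in all 19 settings, and 11 of 19 and 16 of 29 in every fit that left out 1 array. With 1 array left out, the number of falls ranged from 10 (without MI replicate 1 or MI replicate 2) to 17 in MII against MI and from 16 to 23 in MII against GV, and the number of rises from 2 to 3 and from 2 to 8. In MII against GV, 7 rises became 3 with 1 added before log2 and 11 after quantile normalization. In MII against MI, 3 rises became 5 after quantile normalization and 5 after scaling to the same 95th percentile. The median difference of the 85 genes in MII against GV was -0.23 with 64 added and -0.20 when all probe sets were averaged, against -0.48, and ranged from -0.73 to -0.25 with 1 array left out. In MII against MI it was -0.08 after quantile normalization, against -0.31, and ranged from -0.50 to -0.13 with 1 array left out. The cause of these moves was not tested. The replicate block gave 14 falls and 4 rises in MII against MI and 22 and 8 in MII against GV; Commd10, Snx1, Snx25 and Vps8 lost their call against MI with it, and Snx1 and Vps16 against GV. After each gene's stage mean was subtracted, same-numbered arrays of different stages correlated at 0.01 to 0.21. These are correlations of the remaining differences, and not of the intensities themselves. The numbers were not taken to pair samples, because some of these correlations did not pass 0.1, although 7 of 9 arrays correlated best with their own number, a hint from the data and not the design. Dim genes, at or near background, limit what the arrays can show.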
